A study of Mus musculus with 20 samples.

Results

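The responses of the fetal liver to 2 different maternal defects of fatty acid use were set against each other, gene by gene, as a difference of differences. The Ppara arm gave the first response, which is fetuses of Ppara knockout dams minus fetuses of heterozygous dams, and the Cpt2 arm gave the second, which is fetuses of liver Cpt2 knockout dams minus fetuses of floxed dams. The second was subtracted from the first. The comparison used 16 of the 20 libraries of the series, 4 in each of 4 groups, and 11807 of 45802 gene entries, namely those with a log2 value of at least 0 in at least 4 of the 20 libraries. A difference could be computed for 11798 of them.

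Poly(A) RNA sequencing was done on whole livers of C57BL/6 fetuses at stage E17.5, after the dams had been fasted for 24 h, and each group held 2 females and 2 males. In the Ppara arm every fetus was heterozygous for Ppara, and the dam was heterozygous in HetDam_HetFetus and knockout in KODam_HetFetus. In the Cpt2 arm every fetus carried 2 floxed Cpt2 alleles (Cpt2f/f), and the dam was Cpt2f/f in FloxDam_FloxFetus and Cpt2f/f with Albumin-Cre in Cpt2LKODam_FloxFetus. Albumin-Cre drives deletion in hepatocytes, so Cpt2 loss is limited to the liver of the dam, whereas the labels name no tissue for the Ppara knockout. The titles of the Cpt2 arm say wild type where its genotype labels say floxed. The arms therefore differ in fetal genotype and in control group as well as in the maternal defect, and these cannot be told apart in the difference. KODam_HetFetus replicates 1 and 2, and FloxDam_FloxFetus replicates 3 and 4, share a number in the sample descriptions and are presumed littermates.

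PPARA is a nuclear receptor that binds fatty acids and, together with RXR, switches on genes of fatty acid uptake, oxidation, ketone body synthesis and lipid droplets in the fasted liver. CPT2 sits in the inner mitochondrial membrane and returns long-chain acyl groups to coenzyme A, a step that mitochondrial beta-oxidation of these fats requires. A fasted dam that lacks either protein is known to clear fatty acids from blood poorly, and the late fetal liver, which takes up maternal fatty acids, is also a site of blood cell formation. Livers therefore hold hepatocytes beside erythroid, neutrophil and macrophage precursors, and in bulk RNA fewer cells of a type and less RNA per cell cannot be told apart.

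No gene passed the test for a difference between the maternal effects. Of 11798 genes, 0 (0.0%) had a limma adjusted p under 0.05, and the smallest adjusted p, 0.0992, was shared by 23 genes. At an unadjusted p under 0.05 there were 2343 genes (19.9%), of which 1829 (15.5%) had a more positive response in the Ppara arm and 514 (4.36%) with a more negative one. Taken alone, the maternal Ppara effect was called for 4600 of 11800 genes (39.0%), of which 3117 rose (26.4%) and 1483 fell (12.6%), while the maternal Cpt2 effect was called for 0 of 11805 (0.0%). The Ppara count treats presumed littermates as independent. With presumed litter as a random block (estimated correlation within litters 0.566) it was 3768, with 2698 rises and 1070 falls. Without KODam_HetFetus replicates 1 and 2 it was 2845, with 2322 rises and 523 falls. For Cpt2 the smallest adjusted p was 0.147, and 653 genes (5.53%) were higher and 658 (5.57%) lower at an unadjusted p under 0.05. A call in the Ppara arm and none in the Cpt2 arm does not show that the responses differ. The median standard error of the difference was 0.269 on the log2 scale, against 0.19 for either effect alone, so a typical 95% interval reached 0.563 to each side.

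Levels are given as deposited log2 values, and differences as log2 differences between group means. Ehhadh (chr16:21761285-21787834, GRCm38.p6) had one of the clearest differences. It encodes the bifunctional enzyme of peroxisomal beta-oxidation and is a textbook PPARA target. Its values were 3.93, 3.63, 3.88 and 3.50 in HetDam_HetFetus and 7.001, 7.01, 7.04 and 7.71 in KODam_HetFetus. In the Cpt2 arm they were 4.21, 3.17, 4.23 and 4.60 in FloxDam_FloxFetus and 5.47, 4.84, 5.64 and 5.87 in Cpt2LKODam_FloxFetus. Neither arm's groups overlapped, and the step was larger in the Ppara arm. The maternal Ppara effect was 3.45 ± 0.262 (SE) and the maternal Cpt2 effect 1.40 ± 0.262, which left a difference of 2.05 ± 0.371 with a 95% interval of 1.27 to 2.83. The difference missed the threshold (limma adjusted p = 0.0992), and so did the Cpt2 effect (adjusted p = 0.166).

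Plin2, whose product coats lipid droplets (chr4:86626910-86670217, entry Plin2_2 of the table), differed in one arm. Plin2_2 stood at 5.32, 5.06, 5.30 and 5.16 in HetDam_HetFetus and at 7.39, 7.73, 6.27 and 6.66 in KODam_HetFetus. The Cpt2 arm held 5.62, 5.46, 5.45 and 5.52 in FloxDam_FloxFetus and 5.67, 5.20, 5.64 and 5.99 in Cpt2LKODam_FloxFetus. The Ppara arm groups were far apart and the Cpt2 arm groups overlapped, with the presumed littermates highest of all. For Plin2_2 the effects were 1.80 ± 0.232 and 0.11 ± 0.232, and their difference was 1.69 (95% interval 1.01 to 2.38, adjusted p = 0.0992).

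Acot1 and Acot2 encode a cytosolic and a mitochondrial acyl-CoA thioesterase, neighbours on chromosome 12 with similar sequences, so reads may be split between them. Acot2 values were 2.01, 1.84, 1.94 and 0.79 in HetDam_HetFetus, 4.82, 5.82, 3.96 and 4.02 in KODam_HetFetus, 2.11, 1.56, 2.11 and 2.28 in FloxDam_FloxFetus, and 3.04, 2.25, 3.13 and 3.63 in Cpt2LKODam_FloxFetus. The Ppara arm groups were far apart, and the Cpt2 arm groups overlapped at replicate 2 of Cpt2LKODam_FloxFetus only. The difference was 2.01 for Acot2 (95% interval 0.89 to 3.13, adjusted p = 0.124) and 1.34 for Acot1 (0.51 to 2.17, adjusted p = 0.129). Crot, the peroxisomal carnitine octanoyltransferase, showed a difference of 1.48 (0.60 to 2.36, adjusted p = 0.129), with a Ppara effect of 1.69 and a Cpt2 effect of 0.22.

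**Figure D1:**
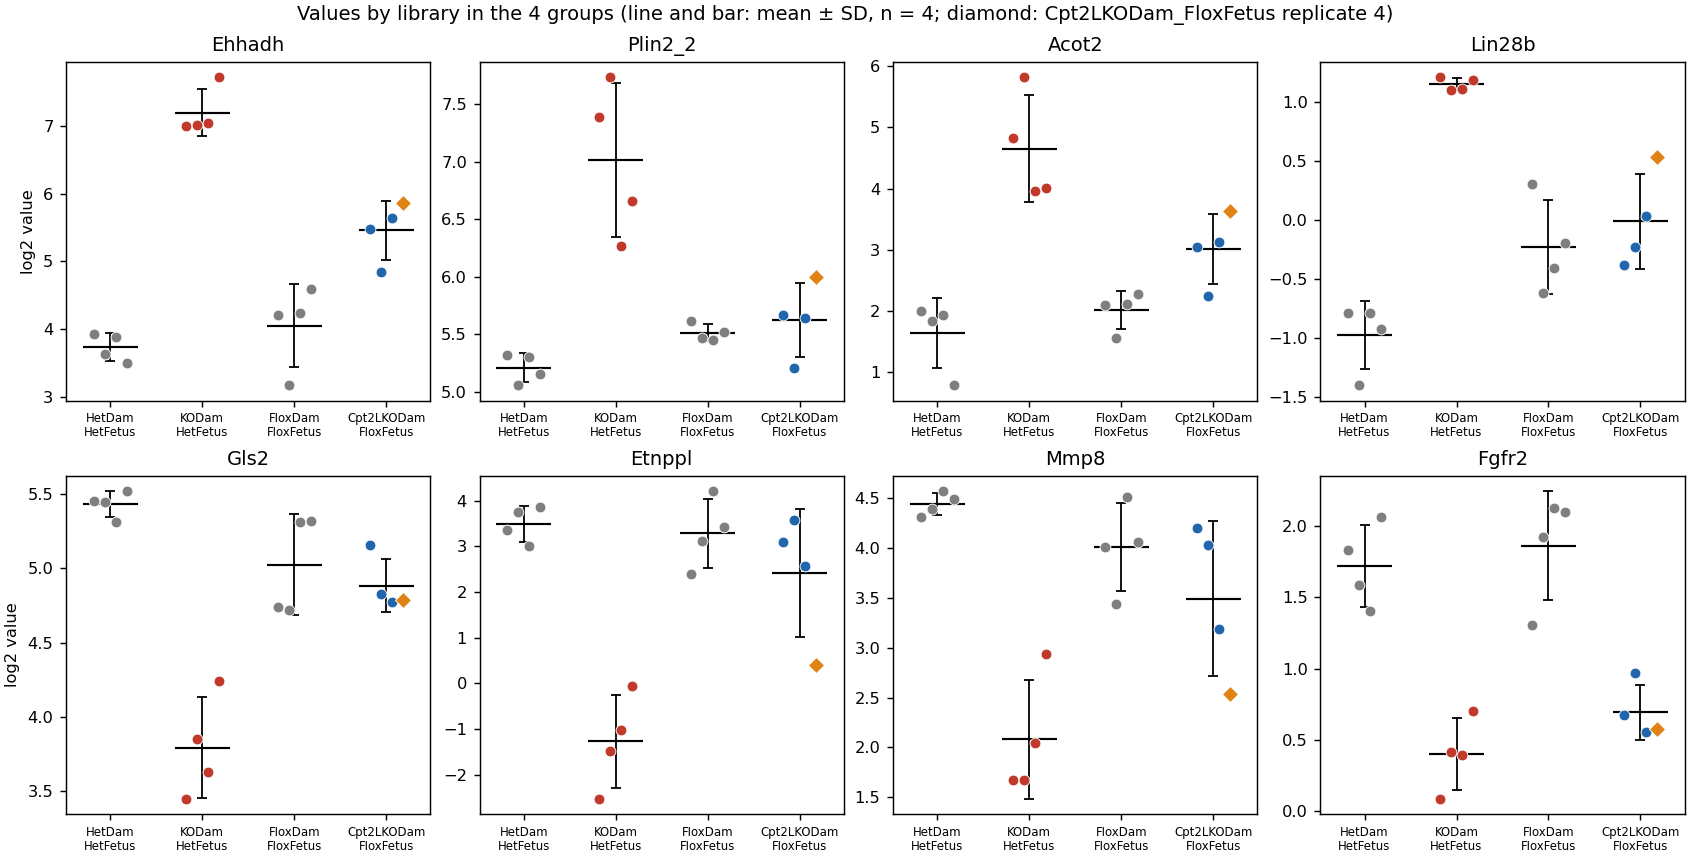
Log2 values of 8 genes in each library of the 4 groups; lines and bars are means ± SD (n = 4), and the diamond is Cpt2LKODam_FloxFetus replicate 4. Ehhadh was higher with both maternal defects by unequal amounts, Plin2_2 and Gls2 differed in the Ppara arm, Fgfr2 was lower by a like amount in both, and in Etnppl the diamond (0.40) lay below the other 3 fetuses of its group.

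Other PPARA targets, from a panel of named genes, gave differences whose intervals held 0. Cpt1a, which controls the entry of fatty acids into mitochondria, had a difference of -0.14 (95% interval -1.34 to 1.06). Its Ppara effect (0.45) and Cpt2 effect (0.59) were not called. Cyp4a10 and Cyp4a14, omega-hydroxylases that respond strongly to PPARA agonists, had differences of -2.23 (-4.60 to 0.14) and -1.08 (-3.71 to 1.55). Both varied widely within groups, from -0.14 to 3.36 for Cyp4a10 in KODam_HetFetus, so these intervals are wide. Without KODam_HetFetus replicates 1 and 2, the presumed littermates, the signs turned to 0.41 for Cpt1a and 0.061 for Cyp4a14. Vnn1, a pantetheinase, differed by 0.48 (-0.35 to 1.31), and Cpt2 itself by 0.25 (-0.23 to 0.73).

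Some targets rose with the maternal Ppara knockout and were higher, without a call, in the Cpt2 arm. Pdk4, which restrains pyruvate oxidation, rose by 2.44 in the Ppara arm and stood 1.31 higher in the Cpt2 arm, a difference of 1.13 (95% interval -0.03 to 2.28). Angptl4, an inhibitor of lipoprotein lipase, rose by 1.61 against a Cpt2 effect of 0.92, and differed by 0.69 (0.01 to 1.37, adjusted p = 0.248). Txnip, a regulator of glucose uptake, had effects of 1.90 and 1.14, and a difference of 0.76 (-0.77 to 2.28). Cidec, a lipid droplet fusion protein, had effects of 3.13 and 2.47, but its difference of 0.66 came with an interval of -1.56 to 2.89 and was -0.38 without FloxDam_FloxFetus replicates 3 and 4.

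Over the 64 tested PPARA targets, 9 had a more positive and 1 a more negative response in the Ppara arm at an unadjusted p under 0.05, against the background of 15.5% and 4.36%. Their median difference was 0.05, below the 0.15 over all tested genes, and it was -0.10 after trimmed-mean scaling of the libraries. Without the presumed littermates of KODam_HetFetus it was 0.29, with 16 members more positive and 0 more negative. Over all genes that setting gave a median of 0.23 and 1701 genes (14.4%) at an unadjusted p under 0.05, 1523 more positive (12.9%) and 178 more negative (1.51%). In the Ppara arm the median effect was 0.26, and 17 members rose and 3 fell, against 26.4% and 12.6% over all genes. The rises thus lay near the share of all genes. In the Cpt2 arm the median effect was 0.20. There 12 were higher at an unadjusted p under 0.05 and 0 lower, against 5.53% and 5.57% over all genes, and 7 were higher without Cpt2LKODam_FloxFetus replicate 4. For that last count the share over all genes was not computed. Mitochondrial oxidation genes (26 tested) had a median difference of -0.04 and ketone body genes (10 tested) one of -0.15, both below the 0.15 over all genes. Of the ketone body genes Bdh1 was highest at 0.70 and Sirt3 lowest at -1.02. Among 20 lipid droplet and lipolysis genes the median difference was -0.18, with Dgat1 (-0.73) and Cideb (-0.98) on the opposite side from Plin2_2. Among 38 peroxisomal and microsomal oxidation genes 3 were more positive and 6 more negative, against 15.5% and 4.36% over all genes. Hao2, a peroxisomal hydroxy acid oxidase, had the value -1.76 (-2.83 to -0.68). Without the littermates the mitochondrial, ketone body and peroxisomal medians were 0.27, 0.12 and 0.15, against 0.23 over all genes. After trimmed-mean scaling these medians were -0.19, -0.30 and -0.34, against -0.0031 over all genes. The mitochondrial list then had 0 more positive and 6 more negative members and the peroxisomal list 3 and 10, against 7.28% and 9.85% over all genes.

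Promoter windows of 300 bases, running from 250 bases before each RefSeq gene start to 50 after it, were searched for a PPAR and RXR site because Ehhadh and Plin2_2, of the 12 leading positive genes, are PPARA targets. A direct repeat of AGGNCA with any 1 base between the copies was looked for on both strands. They were found in 125 of 32851 windows (0.381%) and in 1 of the 50 windows matched to PPARA targets, that of Fabp1, a fatty acid binding protein. The window of Fabp1 (chr6:71199629-71199928, plus strand) is printed to show the match, in capitals, which lies on the minus strand and begins 67 bases before the gene start:
Fabp1: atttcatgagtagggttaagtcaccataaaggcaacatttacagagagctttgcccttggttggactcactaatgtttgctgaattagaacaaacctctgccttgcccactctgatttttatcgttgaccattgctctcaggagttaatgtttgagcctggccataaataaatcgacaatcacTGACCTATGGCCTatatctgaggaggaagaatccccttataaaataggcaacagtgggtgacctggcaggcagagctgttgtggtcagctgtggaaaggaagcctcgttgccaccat
Fabp1 had effects of 0.31 and -0.11 and a difference of 0.41 (95% interval -0.09 to 0.91), with overlapping libraries in both arms. A match describes the letters of this window, and the absence of one in the Ehhadh or Plin2 windows describes only those letters.

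Genes of the mature hepatocyte lay on the other side, with more negative responses in the Ppara arm. Gls2 (chr10:128194635-128210004), the liver glutaminase, was the clearest. It read 5.45, 5.45, 5.32 and 5.52 in HetDam_HetFetus, 3.45, 3.85, 3.63 and 4.24 in KODam_HetFetus, 4.74, 4.72, 5.31 and 5.32 in FloxDam_FloxFetus, and 5.16, 4.83, 4.77 and 4.79 in Cpt2LKODam_FloxFetus. All 4 fetuses of Ppara knockout dams fell below every other library, and the Cpt2 arm groups overlapped. The difference of Gls2 was -1.50 (95% interval -2.14 to -0.87, adjusted p = 0.0992), from effects of -1.64 and -0.14.

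Etnppl (chr3:130617448-130635750), a phospholyase of phosphoethanolamine, had the most negative value of the leading genes. Its levels were 3.37, 3.75, 3.00 and 3.85 in HetDam_HetFetus and -2.52, -1.47, -1.02 and -0.06 in KODam_HetFetus. FloxDam_FloxFetus held 2.39, 3.12, 4.21 and 3.42, and Cpt2LKODam_FloxFetus 3.10, 3.58, 2.56 and 0.40. Replicate 4 of the last group lay between the other 3 fetuses of its group and the fetuses of Ppara knockout dams. The difference for Etnppl was -3.89 ± 0.97 (95% interval -5.92 to -1.86, adjusted p = 0.121), and -4.56 without that replicate.

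Of 30 tested genes of the urea cycle and amino acid breakdown, 10 were more negative in the Ppara arm at an unadjusted p under 0.05 and 0 more positive, against 4.36% and 15.5% over all genes. Their median difference was -0.71. In the Ppara arm 18 of them fell and 0 rose (median -0.93), against 12.6% and 26.4% over all genes, and in the Cpt2 arm the median was -0.13. Hal, which opens histidine breakdown, had a difference of -1.96 (95% interval -2.99 to -0.92), and Nags, which makes the activator of the urea cycle, -0.99 (-1.62 to -0.37). Without KODam_HetFetus replicates 1 and 2 the list had 4 such genes, against 1.51% over all genes, and a median of -0.42. After trimmed-mean scaling it held 18, against 9.85% over all genes, with a median of -0.86.

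Bile acid genes had wide errors. Cyp27a1, of the acidic synthesis pathway, stood at 5.03, 5.23, 5.11 and 4.85 in HetDam_HetFetus and 2.94, 2.63, 4.13 and 4.65 in KODam_HetFetus. Its Cpt2 arm read 3.84, 4.76, 4.93 and 4.62 in FloxDam_FloxFetus, then 5.16, 4.83, 4.62 and 4.86 in Cpt2LKODam_FloxFetus. The presumed littermates were the lowest of all, and the Cpt2 arm groups overlapped, with an effect of 0.33. The difference of Cyp27a1 was -1.79 (95% interval -2.90 to -0.69), that of Slc10a1, the main bile acid importer, -2.29 (-4.05 to -0.53), and that of Cyp7a1, the rate-limiting enzyme, -3.72 (-6.83 to -0.62). Over 17 tested members 1 was more positive and 4 more negative, against 15.5% and 4.36% over all genes, with a median difference of -0.62. Without the littermates the counts were 1 and 1, against 12.9% and 1.51% over all genes, and the median -0.26.

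Hepatocyte genes as a group (51 tested) had a median difference of -0.31. Their median gap between the controls, HetDam_HetFetus minus FloxDam_FloxFetus, was 0.29, against -0.15 over all genes. The difference subtracts that gap, so unlike controls are part of it. At an unadjusted p under 0.05, 0 were more positive and 9 more negative, against 15.5% and 4.36% over all genes. Cebpa, a transcription factor of hepatocyte maturation, had effects of -1.88 and -0.46 and a difference of -1.43 (95% interval -2.27 to -0.58, adjusted p = 0.129). Hpd, of tyrosine breakdown, had a difference of -1.16. The mean log2 level of the list was 7.26 to 7.47 in HetDam_HetFetus, 6.34 to 7.31 in KODam_HetFetus, 6.40 to 7.65 in FloxDam_FloxFetus and 6.80 to 7.17 in Cpt2LKODam_FloxFetus. Within KODam_HetFetus the presumed littermates were lowest (6.34 and 6.38), and without them the median difference was -0.08, with 3 genes more negative, against 1.51% over all genes. Albumin stood at mean levels of 14.9 to 15.4 across the groups (Alb), so the tissue label matched its defining marker. Gluconeogenic and glucose handling genes (22 tested) had a median of -0.47, which was -0.12 without the littermates, and Pck1 gave -0.44 with an interval of -3.62 to 2.74. Their median gap between the controls was 0.25.

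Genes of the cell cycle lay on the positive side. Of 45 tested mitosis genes, 28 were more positive in the Ppara arm at an unadjusted p under 0.05 and 0 more negative, against 15.5% and 4.36% over all genes, and the median difference was 0.64 against 0.15. Of 42 genes of DNA replication and S phase, 20 were more positive and 0 more negative, with a median of 0.57. The median of HetDam_HetFetus minus FloxDam_FloxFetus was -0.29 for mitosis and -0.22 for S phase genes, against -0.15 over all genes. The difference subtracts that gap between the controls, so it is part of these medians. In the Ppara arm 32 mitosis genes and 35 S phase genes rose and 0 of either fell, against 26.4% and 12.6% over all genes. The Cpt2 effect had medians of 0.09 and 0.13, with 4 and 3 members higher at an unadjusted p under 0.05, against 5.53% over all genes. Without Cpt2LKODam_FloxFetus replicate 4 the Cpt2 medians were -0.0078 and 0.06, with 0 members higher in either list. The share of all genes in that setting was not computed, so this drop cannot be assigned to these lists.

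Cdca8, a subunit of the chromosomal passenger complex, shows the pattern: 5.36, 5.15, 5.12 and 5.28 in HetDam_HetFetus, 6.22, 6.02, 5.87 and 5.88 in KODam_HetFetus, 5.65, 5.48, 5.37 and 5.55 in FloxDam_FloxFetus, and 5.40, 5.40, 5.81 and 5.92 in Cpt2LKODam_FloxFetus. The Ppara arm groups did not overlap, and replicates 3 and 4 of Cpt2LKODam_FloxFetus stood above its replicates 1 and 2. The difference of Cdca8 was 0.65 (95% interval 0.29 to 1.02, adjusted p = 0.125). Tacc3 (0.75), Dlgap5 (0.90), the origin factor Orc6 (0.75), E2f1 (0.68) and cyclin A2, Ccna2 (0.74), had adjusted p-values of 0.129 to 0.149. After trimmed-mean scaling 12 mitosis genes and 6 S phase genes were more positive at an unadjusted p under 0.05, against 7.28% over all genes, with medians of 0.49 and 0.42. Without the presumed littermates there were 8 and 1, against 12.9%, with medians of 0.45 and 0.32 against 0.23 over all genes, so the S phase count then lay below the share of all genes.

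Red cell genes lay on the same side. Of 41 tested erythroid and heme synthesis genes, 12 were more positive and 0 more negative, against 15.5% and 4.36% over all genes. The median difference was 0.42. Urod, a decarboxylase of heme synthesis, had a difference of 0.64 (95% interval 0.15 to 1.14, adjusted p = 0.166), from effects of 0.69 and 0.04. Bpgm, which makes the red cell's bisphosphoglycerate, had a difference of 0.44. The mean log2 level of the list was 6.62 to 6.91 in HetDam_HetFetus and 6.96 to 7.21 in KODam_HetFetus, but 6.84 to 7.26 in FloxDam_FloxFetus, so the controls of the 2 arms were not alike. After trimmed-mean scaling 3 genes were more positive at an unadjusted p under 0.05, near the share of 7.28% over all genes. Without the presumed littermates 4 were, below the 12.9% over all genes, with a median of 0.24, near the 0.23 over all genes in that setting.

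Neutrophil genes went the other way. Mmp8 (chr9:7558429-7568486), a collagenase stored in late neutrophil granules, stood at 4.31, 4.38, 4.57 and 4.49 in HetDam_HetFetus and at 1.68, 1.67, 2.04 and 2.94 in KODam_HetFetus. Its Cpt2 arm held 4.01, 3.44, 4.51 and 4.06 in FloxDam_FloxFetus and 4.20, 4.03, 3.19 and 2.54 in Cpt2LKODam_FloxFetus. The fetuses of Ppara knockout dams were low as a group, and in the Cpt2 arm replicates 3 and 4 lay under the control range. The difference of Mmp8 was -1.84 (95% interval -2.83 to -0.85, adjusted p = 0.121).

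Of 27 tested neutrophil genes, 0 were more positive and 17 more negative, against 15.5% and 4.36% over all genes, with a median difference of -0.68. Their median of HetDam_HetFetus minus FloxDam_FloxFetus, which the difference subtracts, was 0.22, against -0.15 over all genes. In the Ppara arm 23 fell and 0 rose, against 12.6% and 26.4% over all genes, with a median of -0.89 against -0.19 in the Cpt2 arm. Lyz2, lysozyme, differed by -0.99 (95% interval -1.66 to -0.31), and Retnlg, of late granules, by -1.27 (-2.15 to -0.39). Elane and Mpo, of the early granules, differed by -0.22 and -0.19 (adjusted p = 0.597 and 0.698); they were picked after their values were seen. Without the littermates the list had 2 more negative genes, against 1.51% over all genes, and a median of -0.42. After trimmed-mean scaling it held 22, against 9.85% over all genes, and a median of -0.83.

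**Figure D2:**
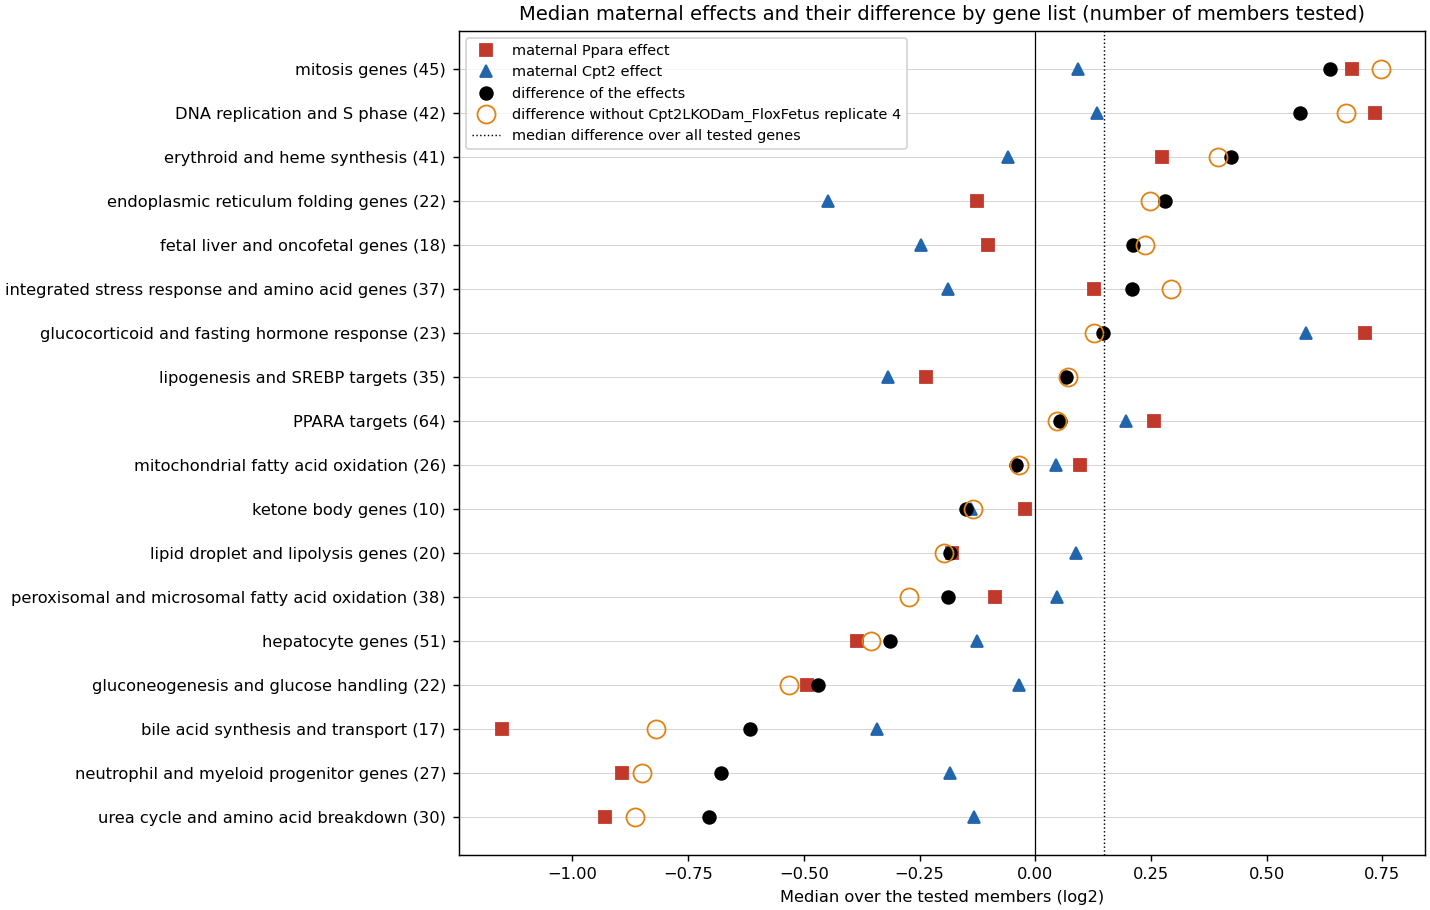
Median over the tested members of 18 gene lists, on the log2 scale, for the maternal Ppara effect (squares), the maternal Cpt2 effect (triangles), their difference (filled circles) and the difference without Cpt2LKODam_FloxFetus replicate 4 (open circles); the dotted line is the median difference over all tested genes, 0.15. Mitosis genes lie highest at 0.64 and urea cycle genes lowest at -0.71, and for the glucocorticoid list both effects are positive (0.71 and 0.59).

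For genes of protein folding in the endoplasmic reticulum the Cpt2 effect lay below 0, with no call. Hspa5, the chaperone BiP, read 7.25, 8.16, 8.22 and 8.004 in FloxDam_FloxFetus and 7.05, 7.29, 7.18 and 7.56 in Cpt2LKODam_FloxFetus, against 7.73, 7.63, 8.11 and 8.21 in HetDam_HetFetus and 8.53, 8.11, 7.93 and 8.05 in KODam_HetFetus. The groups overlapped in both arms, through FloxDam_FloxFetus replicate 1 in the Cpt2 arm. Its effects were 0.24 and -0.64, and the difference 0.88 (95% interval 0.31 to 1.44, adjusted p = 0.135). Of the 22 tested members, 0 were higher and 13 lower for the Cpt2 effect at an unadjusted p under 0.05, against 5.53% and 5.57% over all genes, and 0 were called. The median Cpt2 effect was -0.45 and the median Ppara effect -0.13. For the difference 3 were more positive and 0 more negative, against 15.5% and 4.36% over all genes, so the positive count lay near the share of all genes.

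Members of this list did not share one pattern across the arms. Calr, a calcium-binding chaperone, had effects of -0.27 and -0.65. Pdia4, a disulfide isomerase, had -0.85 and -0.79, a difference of -0.06 (95% interval -0.66 to 0.54), and Xbp1, a transcription factor of the unfolded protein response, -1.02 and -0.57. The last 2 fell in the Ppara arm (limma adjusted p = 0.0034 and 0.00039).

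Integrated stress response and amino acid genes (37 tested) had 7 more positive and 3 more negative members, against 15.5% and 4.36% over all genes, and a median difference of 0.21. After trimmed-mean scaling 2 were more positive and 3 more negative, against 7.28% and 9.85% over all genes, with a median of 0.06. Ppp1r15a, the stress-induced phosphatase subunit that restores translation, differed by 1.07 (95% interval 0.43 to 1.71, adjusted p = 0.129), and Slc7a1, a cationic amino acid transporter, by 0.88. Asns and Trib3, standard targets of the factor ATF4, differed by 0.41 (-0.09 to 0.91) and 0.83 (-0.46 to 2.12). The amino acid response motif, TGATG then NAANC, was searched on both strands and found in 348 of 32851 promoter windows (1.06%) and in 4 of the 31 windows matched to this list, those of Herpud1, Nupr1, Trib3 and Yars. The Trib3 window (chr2:152344011-152344310, minus strand) is printed because Trib3 is a gene of the named panel; its match, in capitals, reads on the opposite strand and begins 12 bases after the gene start:
Trib3: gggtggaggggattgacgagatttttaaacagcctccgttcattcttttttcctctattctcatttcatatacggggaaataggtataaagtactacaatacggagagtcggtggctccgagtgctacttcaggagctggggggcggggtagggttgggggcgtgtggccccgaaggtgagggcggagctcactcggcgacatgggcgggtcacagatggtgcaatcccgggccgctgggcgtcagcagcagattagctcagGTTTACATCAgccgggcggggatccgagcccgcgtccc
Trib3 stood at 1.54 to 2.77 in HetDam_HetFetus, 2.19 to 3.80 in KODam_HetFetus, 2.84 to 4.38 in FloxDam_FloxFetus and 2.17 to 4.48 in Cpt2LKODam_FloxFetus, so the groups overlapped within both arms.

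Among fetal and growth genes, Lin28b (chr10:45376617-45486314), an RNA-binding protein that holds cells in a fetal state, read -0.79, -1.40, -0.79 and -0.93 in HetDam_HetFetus and 1.21, 1.10, 1.11 and 1.19 in KODam_HetFetus. The Cpt2 arm held 0.31, -0.62, -0.41 and -0.20 in FloxDam_FloxFetus and -0.39, -0.23, 0.03 and 0.53 in Cpt2LKODam_FloxFetus. Its Ppara arm groups were apart and its Cpt2 arm groups overlapped, for a difference of 1.91 (95% interval 1.18 to 2.64, adjusted p = 0.0992). Afp, alpha-fetoprotein, differed by 0.78 (0.23 to 1.33, adjusted p = 0.149) with overlapping groups in both arms, and the median over 18 tested members was 0.21. Igfbp1, a fasting-induced binding protein of insulin-like growth factors, rose by 0.71 in the Ppara arm and differed by 0.24 (-0.52 to 0.99). Sgk1, a glucocorticoid-induced kinase, rose by 1.92 and differed by 1.26 (0.32 to 2.21), while its list of 23 genes had a median difference of 0.15 (-0.0050 after trimmed-mean scaling). Lipogenic genes (35 tested) differed by a median of 0.07 (-0.09 after trimmed-mean scaling), with 8 lower and 0 higher for the Cpt2 effect at an unadjusted p under 0.05, against 5.57% and 5.53% over all genes, and 4 lower without Cpt2LKODam_FloxFetus replicate 4. For that last count the share over all genes was not computed. Scd1, a fatty acid desaturase, differed by 1.18 (0.25 to 2.11).

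Among the 12 genes with the smallest p in the positive direction, chosen for that value, differences ran from 0.74 to 2.05. All 12 rose in the Ppara arm, and in all 12 the mean of HetDam_HetFetus lay under that of FloxDam_FloxFetus, by 0.30 to 0.85. The choice favours both traits, since the difference contains the Ppara effect and subtracts the gap between the controls. In the Cpt2 arm 0 were called, as was the case for all 11805 genes tested there. Exoc5, a subunit of the exocyst that tethers secretory vesicles (chr14:49011922-49066667), stood at 1.47, 0.98, 1.29 and 1.73, at 2.38, 2.45, 2.38 and 2.35, at 2.09, 2.04, 1.80 and 1.89, and at 1.83, 1.89, 1.92 and 2.04 in HetDam_HetFetus, KODam_HetFetus, FloxDam_FloxFetus and Cpt2LKODam_FloxFetus. Both Cpt2 arm groups lay between the 2 groups of the Ppara arm. Its difference of 1.06 (95% interval 0.68 to 1.44) therefore held a gap of -0.59 between the controls (adjusted p = 0.0647) beside one of 0.47 between the knockout-dam groups. Naa50, an acetyltransferase (0.74), the transcription factor Tcf7 (1.55), Armcx5 (1.17), the chondroitin enzymes Chsy1 (0.80) and Csgalnact2 (0.86), the tRNA methylation subunit Trmt6 (1.02) and the polyadenylation factor Cpsf6 (0.97) also had lower controls in the Ppara arm.

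The 12 genes of smallest p in the negative direction ran from -0.70 to -3.89, and for 11 of them HetDam_HetFetus lay above FloxDam_FloxFetus, by at most 0.46. Beside Gls2, Etnppl, Hal and Mmp8 they held Echdc3 (-1.57), Top1mt, the mitochondrial topoisomerase (-1.25), the transport regulator Fxyd5 (-0.77), Adssl1 (-0.70), the copper chaperone Ccs (-0.94), Dpys, of pyrimidine breakdown (-1.42), Pbld1 (-1.55) and Nagk, which phosphorylates acetylglucosamine (-1.11). All 12 fell in the Ppara arm, which, like the gap between the controls, the choice by the difference favours. In the Cpt2 arm 0 of the 12 were called, and 0 of all 11805 genes tested there.

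The gap between the control groups ran through the whole table. HetDam_HetFetus minus FloxDam_FloxFetus had a median of -0.15 over all genes, with 85 genes higher (0.72%) and 1861 lower (15.8%) at an unadjusted p under 0.05, and 16 (0.136%) called. The median difference of the maternal effects was 0.15 and became -0.00 after trimmed-mean scaling. That scaling turned the split at an unadjusted p under 0.05 from 1829 positive and 514 negative to 859 (7.28%) and 1162 (9.85%). For the maternal Ppara effect it turned 3117 rises and 1483 falls into 2144 and 2276. Differences of single genes include that shift of 0.15.

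Some named genes had effects of like size in both arms, though no gene was ranked by that closeness. Fgfr2, a fibroblast growth factor receptor (chr7:130162451-130266808), read 1.83, 1.58, 1.40 and 2.06 in HetDam_HetFetus, 0.09, 0.41, 0.40 and 0.71 in KODam_HetFetus, 1.30, 1.92, 2.12 and 2.10 in FloxDam_FloxFetus, and 0.67, 0.97, 0.56 and 0.57 in Cpt2LKODam_FloxFetus. Neither arm's groups overlapped. Its effects were -1.32 and -1.17 and their difference -0.15 (95% interval -0.74 to 0.44). Fgfr2 was chosen for its p in the Cpt2 effect, the smallest among curated genes (adjusted p = 0.147). Ehhadh, Pdzk1, Tcea3, Adm and Fam114a1 came next by the same rule, which favours large Cpt2 effects. Adm, the vasodilator adrenomedullin, had effects of 1.27 and 1.18 and a difference of 0.09 (-0.62 to 0.81), and Tcea3, an elongation factor, -0.93 and -0.92 and -0.01 (-0.54 to 0.53). Pdzk1, a scaffold of membrane transporters, and Fam114a1 leaned to the Cpt2 arm, with effects of -0.55 and -1.06, and of -0.44 and -0.87. Hamp, the iron hormone hepcidin, had effects of 2.19 and 1.64 and a difference of 0.54 (-1.26 to 2.35), which was -0.60 without the presumed littermates of KODam_HetFetus. Intervals this wide do not show that the responses were equal.

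**Figure D3:**
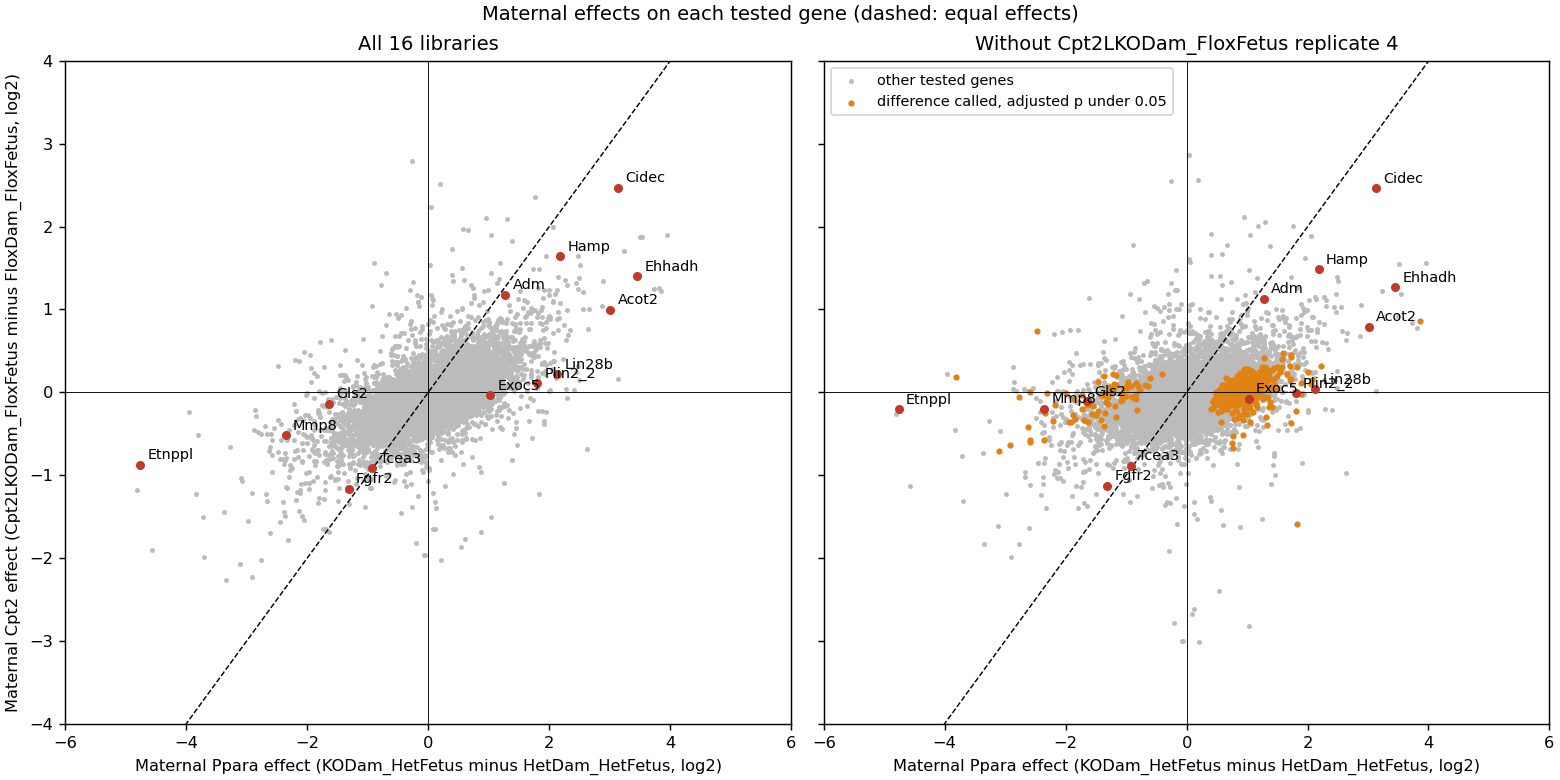
Maternal Ppara effect (horizontal) against maternal Cpt2 effect (vertical), log2, for the 11651 tested genes with a value in all 16 libraries; the right panel leaves out Cpt2LKODam_FloxFetus replicate 4 and colours genes then called for the difference. Plin2_2, Lin28b and Exoc5 lie near the horizontal axis, Fgfr2, Tcea3 and Adm near the dashed line of equal effects, and Ehhadh between the line and the axis.

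One library decided how many genes were called. Without Cpt2LKODam_FloxFetus replicate 4, 421 of 11797 genes (3.57%) passed the threshold for the difference, 343 positive (2.91%) and 78 negative (0.661%). Leaving out any of the other 15 libraries gave 0 to 2 calls. Those were Gm15453 and Gm13736 without HetDam_HetFetus replicate 1, Exoc5 without its replicate 4, Gm14388 and Plin2_2 without KODam_HetFetus replicates 1 and 3 in turn, and Ehhadh without FloxDam_FloxFetus replicate 2. In that fit without replicate 4 the Cpt2 effect was called for 1 gene of the whole table. The classes with a call in the Cpt2 arm could therefore hold no other gene. Of the 421, 419 were called in the Ppara arm and not in the Cpt2 arm, 0 in the Cpt2 arm only and 0 in both with the same sign. The other two, named for that reason, were LOC108168067, called in both arms with opposite signs, and Gm42226, called in neither; with the replicate out, Cpt2LKODam_FloxFetus had 1 library with a value for LOC108168067. The 421 included 23 of the 24 leading genes, Adssl1 being the exception, and Ehhadh (2.19), Plin2_2 (1.81) and Lin28b (2.09) each at an adjusted p of 0.0291. The leading genes were chosen by p for this same difference on shared libraries, so their inclusion is no separate evidence for them. The 421 calls held 7 of 45 tested mitosis genes, 3 of 64 PPARA targets and 2 of 27 neutrophil genes, against 3.57% of all genes. They also held 3 of 18 fetal liver genes and 2 of 30 urea cycle genes. Below that share were S phase (0 of 42), folding (0 of 22), bile acid (0 of 17), hepatocyte (1 of 51) and erythroid genes (1 of 41).

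**Figure D4:**
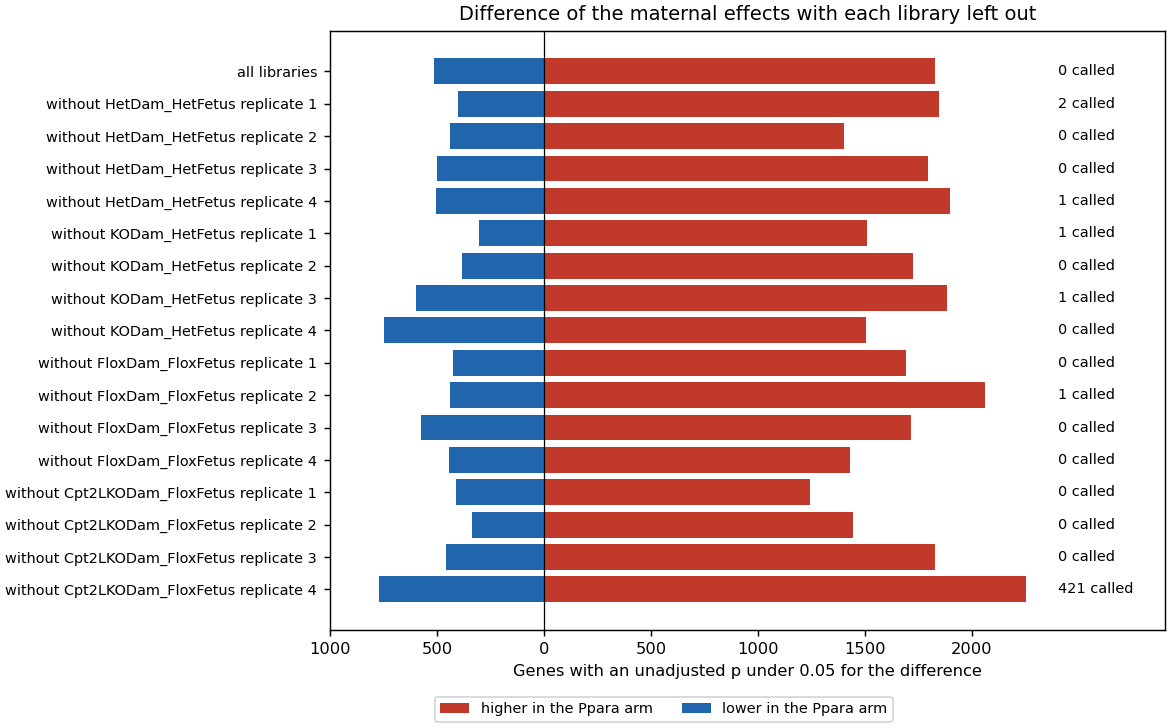
Genes with an unadjusted p under 0.05 for the difference, to the right when more positive and to the left when more negative in the Ppara arm, with all libraries and with each of the 16 left out in turn; the number called at an adjusted p under 0.05 is printed at the end of each bar. The number called is 421 without Cpt2LKODam_FloxFetus replicate 4 and 0 to 2 in every other bar.

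These 421 calls were not steady under other settings with the replicate left out. Fitting only the 4 groups gave 549 calls, of which 373 were among the 421, and fetal sex as a covariate gave 271, of which 269 were. Trimmed-mean scaling gave 59 positive and 197 negative calls, 137 of them shared, and quantile normalization of the tested genes 73 and 127, with 148 shared. With presumed litter as a random block 1 gene was called, and with KODam_HetFetus replicates 1 and 2 left out as well 2 were. No label sets replicate 4 apart from its group: it is female, as is replicate 2, and has a litter number of its own, as do the other 3.

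Replicate 4 of Cpt2LKODam_FloxFetus was the library of its group closest to the fetuses of Ppara knockout dams. Over the 3117 genes that rose in the Ppara arm, the median value above the control mean of its own arm was -0.01, 0.06, 0.20 and 0.40 in replicates 1 to 4 of Cpt2LKODam_FloxFetus, against 0.62 to 0.73 in KODam_HetFetus. Over the 1483 genes that fell, the Cpt2 arm gave -0.29, -0.05, -0.22 and -0.65, and KODam_HetFetus -1.10, -0.94, -0.72 and -0.54. Replicate 4 thus lay inside the range of KODam_HetFetus for the falls and under it for the rises. It was the highest of its 4 libraries for 2140 of 3109 rises (68.8%) and the lowest for 1066 of 1483 falls (71.9%). The same shares over all tested genes were not computed. Replicate 4 also stood at least 2-fold from the mean of the rest of its group for 4.62% of genes. For replicates 1 to 3 that share was 3.56%, 3.04% and 2.47%. In the other groups it ran from 2.69% to 6.10%. HetDam_HetFetus replicate 2 (6.10%) and KODam_HetFetus replicate 2 (4.83%) lay above replicate 4, so its share was not unusual among the libraries. The genes were picked in the Ppara arm, which shares no library with the Cpt2 arm.

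**Figure D5:**
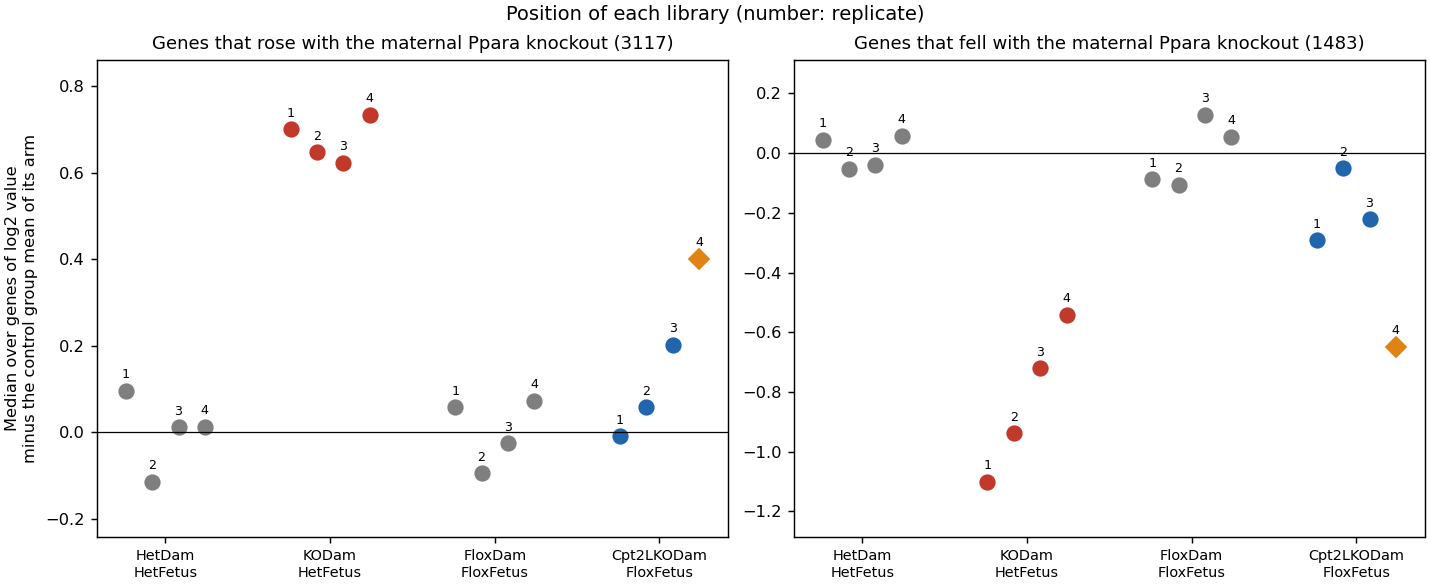
Position of each of the 16 libraries over the genes that rose (3117, left) and fell (1483, right) with the maternal Ppara knockout: the median over genes of the log2 value minus the mean of the control group of the same arm. The genes were chosen on the Ppara arm; in Cpt2LKODam_FloxFetus the diamond, replicate 4, lies at 0.40 and -0.65, and the other 3 libraries between -0.01 and 0.20, and between -0.29 and -0.05.

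The Cpt2 effect had the sign of the Ppara effect for 2601 of 3116 rises (83.5%) and 1361 of 1483 falls (91.8%), at medians of 0.16 and -0.32 against 0.67 and -0.84. Over all tested genes the median Cpt2 effect was -0.0068, and the share with like signs was not computed. Across genes the effects correlated at r = 0.56, and at 0.338 without replicate 4, as a description over genes that share libraries and are not independent. In replicate 4 Ppp1r3b, which targets phosphatase to glycogen, stood at 0.99, against 3.60, 3.69 and 2.57 in the other fetuses of its group and 0.81 to 1.75 in KODam_HetFetus. Lyz2 stood at 7.11 there, against 8.18 to 8.49 in the other 3 and 6.92 to 7.34 in KODam_HetFetus.

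Marker transcripts of neighbouring tissues differed between libraries. Summed linear levels of 23 muscle markers were 288 in HetDam_HetFetus replicate 4 and 72.6 to 139 in the other 15 libraries. Those of 15 intestine markers were 323 in HetDam_HetFetus replicate 1, 178 in Cpt2LKODam_FloxFetus replicate 2 and 49.0 to 99.3 elsewhere, with Gkn2 without a value in any of the 16. Those of 19 pancreas markers were 1030 in Cpt2LKODam_FloxFetus replicate 2 and 164 to 368 elsewhere, with Pnlip without a value. Without these 3 libraries and the one such library of the group not used here, 1 gene was called for the difference (Exoc5), the mitosis median was 0.74 with 32 genes more positive, the neutrophil median -0.69 with 12 more negative, the hepatocyte median -0.29 with 6 more negative, and the folding median 0.40 with 6 more positive. Over all 11780 genes tested in that setting, 1577 were more positive and 269 more negative at an unadjusted p under 0.05, and the median difference was 0.22. The erythroid list then had 6 more positive genes of 41, near the share of all genes. The S phase list had 14 of 42, and the glucocorticoid median was -0.12. Summed linear levels of 15 kidney and adrenal markers, of which 2 were tested, were 4.99 to 37.1 in KODam_HetFetus and 69.9 to 104 in HetDam_HetFetus. They were 47.2 to 110.3 in FloxDam_FloxFetus, and 122, 97.3, 37.2 and 25.2 in replicates 1 to 4 of Cpt2LKODam_FloxFetus, and their part was not tested. Each library gave a value to 23334 to 26255 gene entries. Fetal Ppara transcripts cannot check the dam's genotype, and stood at 2.86 to 3.47 in HetDam_HetFetus and 1.81 to 3.22 in KODam_HetFetus.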

How the data were processed

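Trizol and column extracts were made into stranded poly(A) libraries with reads of 75 bases, per the labels' protocols. The submitters' processing notes name bcl2fastq (2.17.1.14), Partek (7.0) and GRCm38.p6, without an aligner or counting rule. The authors deposited 1 table of log2 values, quantile normalized over the values present. These could not be taken back to reads, so depth is unknown and no count test was run.

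One mean per group was fitted over all 20 libraries, those of knockout fetuses of Ppara knockout dams adding only to the spread (limma 3.58.1, R 4.3.3, mean-variance trend), two-sided, with Benjamini-Hochberg adjustment over all genes of a comparison and calls at 0.05. The fit was tested on simulated data. P-values measure the spread between fetuses, since litter is presumed from unexplained numbers. Alternatives covered trimmed-mean and quantile scaling, filters, pseudocounts of 0.1 and 4 on linear values, sex, litter, a replicate block and left-out libraries. Members, lists and tests were chosen with earlier results of these data known.

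The named genes were to be called members of each response class and list, and a fixed panel. With 0 calls only the panel remained, in which Fgf21 did not reach the minimum. The others were chosen after their values were seen: the 12 smallest p in each direction among genes with a curated symbol and a value in all 16 libraries, the 3 smallest p per list described, the 6 smallest p of the Cpt2 effect and the 4 smallest among folding genes, and Fabp1. Symbols are those of the table, of which 41223 of 45802 (11234 of 11807 tested) matched RefSeq, the source of positions and promoters. Overlapping genes and close copies may share reads. Some genes that these rules chose are not reported here.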

Additional observations from a re-analysis of the deposited data

Results flagged for a closer look

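Of 372 groups of 4 libraries behind the named genes, 15 had 1 library far from the other 3, by Dixon's criterion; chance gives about 5% of groups. In Cpt2LKODam_FloxFetus, replicate 4 was lowest for Dpys (3.38), Slc10a1 (4.06) and Lcn2 (7.74), and replicate 1 was highest for Gls2 (5.16), Hal (4.21) and Crot (4.31). In HetDam_HetFetus, replicate 4 was lowest for Acot1 (3.03), Acot2 (0.79) and Pck1 (0.96), replicate 2 lowest for Dlgap5 (3.67), replicate 1 highest for Urod (7.86) and replicate 3 highest for Lyz2 (8.95). In KODam_HetFetus, Ehhadh was highest in replicate 4 (7.71) and Pdk4 lowest in replicate 3 (5.79). In FloxDam_FloxFetus, Mvd was highest in replicate 1 (4.01).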

How the results depend on the processing

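The count of 0 genes called for the difference of the maternal effects held with a replicate block (smallest adjusted p 0.0648), with sex as a covariate (0.0541), with presumed litter as a random block (0.250), in the 16 libraries alone, without FloxDam_FloxFetus 3 and 4, after trimmed-mean or quantile scaling, with a pseudocount of 0.1, with no or a stricter filter, and with either other variance setting. The replicate number gave 0 calls as a block and does not pair the samples: deviations of same-numbered libraries correlated at -0.228 to 0.211. There was 1 call, positive, without KODam_HetFetus 1 and 2 (Gm14388) and 1 without the 4 libraries with markers of other tissues (Exoc5), and 2 with a pseudocount of 4 (Exoc5, Ehhadh), and these were called for the Ppara dam only. Leaving out 1 library gave 0 to 343 positive and 0 to 78 negative calls, of which 0 to 419 were for the Ppara dam only, 0 to 1 opposite and 0 to 1 in neither arm. For the Ppara effect it gave 2512 to 3144 rises and 949 to 1629 falls, and for the Cpt2 effect 0 to 1 falls.

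With Cpt2LKODam_FloxFetus 4 out, the other fits, all added after the data were seen, gave 376 positive and 173 negative calls (4 groups only), 59 and 197 (trimmed means), 73 and 127 (quantile), 222 and 49 (sex), 1 and 0 (litter) and 2 and 0 (also without KODam_HetFetus 1 and 2). Those for the Ppara dam only were 548, 255, 199, 270, 0 and 1, and 1 gene, with opposite signs, was called lower for the Cpt2 effect in each. Quantile scaling of all libraries called 1 gene lower for it (Fgfr2). Falls in the Ppara effect were 523 without KODam_HetFetus 1 and 2, 596 with replicate 4 out too, 2276 after trimmed-mean scaling, 2303 with replicate 4 out too, and 820 without the marker libraries.

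Signs turned for some named genes, all with main intervals that held 0. Without KODam_HetFetus 1 and 2 the values were 0.061 for Cyp4a14, 0.41 for Cpt1a, -0.60 for Hamp and 0.00028 for Fgfr2, and with replicate 4 out too 0.46 for Cpt1a and -0.44 for Hamp. Without FloxDam_FloxFetus 3 and 4 they were -0.38 for Cidec, 0.0010 for Tcea3 and -0.13 for Adm. Without the marker libraries they were -0.16 for Hamp, 0.17 for Fgfr2, 0.16 for Tcea3, -0.12 for Adm and 0.17 for Pdia4. Scaling by trimmed means gave -0.057 for Adm and by quantiles -0.11 (-0.019 and -0.062 with replicate 4 out). Leaving out 1 library gave -0.45 to 0.19 for Cpt1a, -0.028 to 1.38 for Cidec, -1.44 to 0.24 for Pck1, -0.26 to 0.036 for Fgfr2, -0.13 to 0.11 for Tcea3, -0.057 to 0.28 for Adm and -0.25 to 0.13 for Pdia4. The cause of these changes was not tested. Groups of 4 fetuses, presumed littermates and unknown depth limit the precision.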
